A study of Mus musculus with 4 samples.

Results

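Oxidative phosphorylation subunits are the nuclear-encoded proteins of respiratory complexes I to IV, of cytochrome c and of the ATP synthase, also called complex V. They were selected here by gene symbol alone, as the probe sets annotated with a single symbol that begins with Ndufa, Ndufb, Ndufc, Ndufs, Ndufv, Uqcr, Cox4 to Cox8 or Atp5, or that is Sdha to Sdhd, Cyc1 or Cycs, with the Ndufaf assembly factors left out. This gave 84 genes with 174 probe sets, of 18193 genes with 35041 single-symbol probe sets on both arrays. Complex I had 36 of these genes, complex II had 4, complex III with cytochrome c had 10, and complexes IV and V had 17 each. Symbols were those of the array annotation, and the gene identifiers of all 84 carry the same symbol in the RefSeq gene table of GRCm38.p6.

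Neurospheres, floating cultures of neural stem and progenitor cells, came from the ventral telencephalon of mouse forebrain at E12.5, in mid-gestation. Wild-type and E2f4 knockout neurospheres gave 1 RNA sample each, which was hybridised to an Affymetrix MOE430A and an MOE430B array. The allele, strain, litter, sex and culture passage are not given in the sources used here. A genotype is thus a single RNA, so differences below are between these samples, with no p-value and no error across cultures.

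Complex I takes electrons from NADH and complex II takes them from succinate. Both pass them through ubiquinone to complex III, from which cytochrome c carries them to complex IV, where oxygen is reduced. Complexes I, III and IV pump protons across the inner mitochondrial membrane, and the ATP synthase uses the gradient to make ATP. The subunits are needed in most cells at matched amounts, and several complexes also take in a few subunits made from the mitochondrial genome, which the selection did not cover. Nuclear respiratory factor 1 (NRF1), GABPA of the ETS family and YY1 are known regulators of many of these genes.

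Promoter letters were compared because the knockout removes an E2F factor and because NRF1, ETS and YY1 motifs are textbook features of these genes. Promoters of 68 of the 84 genes were taken from RefSeq (GRCm38.p6), as windows from 250 bases before to 50 after a transcript start. Each motif was searched on both strands and counted per gene. The NRF1 motif was in 22.1% of subunit genes and 5.19% of all 27025 genes with a window. The ETS motif CCGGAAG was in 17 of 68 and in 9.93%, and the YY1 motif AAGATGGCG in 8.82% and 1.64%. The CCAAT box was in 42.6% and 41.1%. For E2F, TTTGGCGC or TTTCCCGC was in 2 of 68 subunit genes, Cox5a and Cox8a, a share of 2.94%, and in 1.80% of all genes. Only these exact letters were counted, so other forms of an E2F site were not searched. Motifs in 1 window can overlap, and a match is a description of letters.

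The promoters printed next are those of Sdhd and Atp5g1, which lay farthest from 0 apart from Cox8c, of the other subunit c genes, and of both genes with E2F letters. Each is the 250 bases before the start, 5′ to 3′ on the gene's strand, with NRF1, ETS, YY1, E2F and CCAAT matches in capitals. Matches that reach past the start are not shown, which include those of NRF1 for Atp5g3 and of ETS for Cox8a. Sdhd (chr9:50603850-50604099, minus strand) holds an NRF1 and an ETS match. Of the letters searched, Atp5g1 (chr11:96075632-96075881, minus strand) holds CCAAT matches alone. Near matches to the E2F letters, such as gcgggaat in Atp5g1 and cttcccgc in Atp5g2, were not counted. Atp5g2 (chr15:102671048-102671297, minus strand) holds an NRF1 match close to the start. Atp5g3 (chr2:73911327-73911576, minus strand) holds 1 CCAAT match. Cox5a (chr9:57520982-57521231, plus strand) and Cox8a (chr19:7217617-7217866, minus strand) hold the E2F letters in opposite orientation.
Sdhd: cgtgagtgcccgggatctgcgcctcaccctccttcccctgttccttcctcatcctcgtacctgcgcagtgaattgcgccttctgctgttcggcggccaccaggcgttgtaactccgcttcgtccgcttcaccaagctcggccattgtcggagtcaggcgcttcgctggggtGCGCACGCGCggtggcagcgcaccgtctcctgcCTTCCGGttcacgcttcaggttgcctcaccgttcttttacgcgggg
Atp5g1: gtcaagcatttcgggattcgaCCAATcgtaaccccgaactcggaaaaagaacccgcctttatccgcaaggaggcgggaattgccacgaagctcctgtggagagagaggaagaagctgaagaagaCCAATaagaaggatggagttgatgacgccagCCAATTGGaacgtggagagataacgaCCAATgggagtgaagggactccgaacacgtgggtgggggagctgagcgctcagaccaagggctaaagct
Atp5g2: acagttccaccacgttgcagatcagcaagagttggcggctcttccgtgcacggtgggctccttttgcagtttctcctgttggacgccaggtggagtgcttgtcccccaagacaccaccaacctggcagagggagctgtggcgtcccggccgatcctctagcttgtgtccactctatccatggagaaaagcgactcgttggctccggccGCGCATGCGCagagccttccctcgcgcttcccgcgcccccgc
Atp5g3: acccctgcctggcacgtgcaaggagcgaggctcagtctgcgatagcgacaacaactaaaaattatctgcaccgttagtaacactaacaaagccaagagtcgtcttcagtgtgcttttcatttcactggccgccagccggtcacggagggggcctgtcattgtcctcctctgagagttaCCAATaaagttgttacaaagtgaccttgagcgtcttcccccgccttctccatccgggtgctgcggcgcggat
Cox5a: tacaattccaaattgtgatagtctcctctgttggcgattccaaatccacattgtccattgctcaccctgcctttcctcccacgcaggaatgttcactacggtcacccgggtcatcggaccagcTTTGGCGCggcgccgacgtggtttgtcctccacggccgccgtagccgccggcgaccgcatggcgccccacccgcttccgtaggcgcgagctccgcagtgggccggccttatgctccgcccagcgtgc
Cox8a: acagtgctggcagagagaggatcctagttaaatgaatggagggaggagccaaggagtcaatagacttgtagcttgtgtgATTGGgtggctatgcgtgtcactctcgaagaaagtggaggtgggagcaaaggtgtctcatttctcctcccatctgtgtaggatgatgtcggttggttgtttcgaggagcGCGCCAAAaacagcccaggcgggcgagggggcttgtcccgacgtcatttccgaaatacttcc

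Neural progenitor markers were present in both samples. All 9 of those on the arrays were measured, and their summed signal was 117723 in wild type and 127307 in knockout. Of these, 6 were higher and 3 lower in the knockout. Hes5 lay farthest from 0, at a log2 ratio of -0.86 from probe sets at -1.48 and -0.24. Neuron markers summed to 103454 and 89586, with 5 of 6 lower in the knockout. The ventral markers were lower too, at 20937 and 14050, with 0 of 5 measured ones higher. Their log2 ratios ran from -0.95 for Dlx5, at 3710 and 1916, to -0.14 for Gsx2. Nkx2-1 read 1026 and 796. Lhx6 read 2678 in wild type and 597, below the floor, in knockout. Embryonic globins gave the red blood cell list sums of 125456 and 93292. Microglial markers summed to 5004 in wild type and 4310 in knockout. Of the 6, 4 were below the floor in both samples, Aif1, Cx3cr1, Itgam and Tyrobp. The other 2 were measured and lower in the knockout, Csf1r at a log2 ratio of -0.25 and Laptm5 at -0.63. Csf1r read 1830 and 1776 on its brightest probe set, and Laptm5 read 1441 and 928. The endothelium list summed to 4523 and 5986, higher in the knockout. Kdr, one of its members, read 1594 and 2068, Flt1 read 244 and 2226, and Eng read 1138 and 869, while Cdh5, Pecam1 and Tek were below the floor in both. Muscle markers summed to 7534 and 8289, with 4 of 7 below the floor in both samples. Mesenchyme markers summed to 3641 and 3387, with Col1a1, Col3a1, Lum and Pdgfrb below it in both. E2f4 had 1 probe set, at 1812 in wild type and 1535 in knockout, and its place relative to the deleted part is not given. The part of these differences in cell markers in any result below was not tested. Fewer cells of a type and less RNA per cell cannot be told apart in such samples.

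Signals are MAS5 values, a linear measure of hybridisation per probe set with the same trimmed mean on all 4 arrays as deposited. A probe set is called measured if neither sample fell under a floor, the median signal of the array type, 736 on MOE430A and 942 on MOE430B. Log2 ratios are knockout over wild type within an array type, centred on the median of all measured probe sets, and a gene's value is the mean over its measured probe sets. Of the 84 subunit genes, 77 had at least 1 measured probe set. Ndufb1 and Cox6b2 reached the floor in wild type alone, Cox4i2 in knockout alone, and Cox7a1, Cox7b2, Cox7c and Cox8b in neither. By probe set, 137 of 174 were measured (78.7%), against 46.8% of all single-symbol probe sets. Another 6 reached the floor only in wild type and 2 only in knockout, where 5.35% and 5.47% of all did. On MOE430A it was 131 of 154 and on MOE430B 6 of 20, so the values rest almost wholly on MOE430A.

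The subunit genes lay close to 0. Their median log2 ratio was -0.019, against -0.0013 over all 10171 measured genes, and 37 were higher and 40 lower in the knockout sample. The share above 0 was 48.1%, against 49.8% of all measured genes, of which 50.2% were below 0. The median distance from 0 was 0.086 on the log2 scale, against 0.18 for all genes. One gene, Cox8c, was at least 1.5-fold higher in the knockout, where 3.51% of all genes were, and 0 of 77 were at least 1.5-fold lower, where 3.86% of all genes were. By probe set, 2 of 137 were past 1.5-fold in either direction and 1 was past 2-fold, against 9.47% and 1.42% of all measured probe sets. These shares pool array types that differ. On MOE430A 1 of 131 subunit probe sets was past 1.5-fold, against 5.34% of all, and on MOE430B 1 of 6, against 15.2%. On MOE430A alone the median distance of genes from 0 was 0.076 for subunits and 0.16 for all. At least 2-fold differences were found for 0 of 77 subunit genes in either direction, with shares of 0.531% higher and 0.482% lower among all genes.

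Subunit probe sets were mostly bright, and ratios scatter less at high signal. Among genes of a mean signal of 5000 or more, the 46 subunit genes had a median distance from 0 of 0.078, and all 1256 genes had 0.12. Of these, 21 of 46 subunit genes were above 0, against 52.4% of all. In that group 0 of 46 subunit genes were past 1.5-fold, against 1.04% of all genes higher and 1.19% lower. The comparison was similar by probe set. Between signals of 5000 and 10000, the SD of the log2 ratio was 0.21 over 45 subunit probe sets and 0.27 over all 1799, and at 10000 or more it was 0.11 over 41 and 0.21 over 950. In the brightest band 12 of 41 subunit probe sets were above 0, with a median of -0.031, while 542 of all 950 were, with a median of 0.028. With the brightest probe set per gene 36.4% of subunit genes were above 0, against 49.0% of all genes. These signal groups pool both array types. The distance from 0 also differed by the number of probe sets averaged. With more than 1 measured probe set its median was 0.070 for 41 subunit genes and 0.14 for all 3956. With 1 measured probe set it was 0.14 for 36 subunit genes and 0.21 for all 6215.

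**Figure D1:**
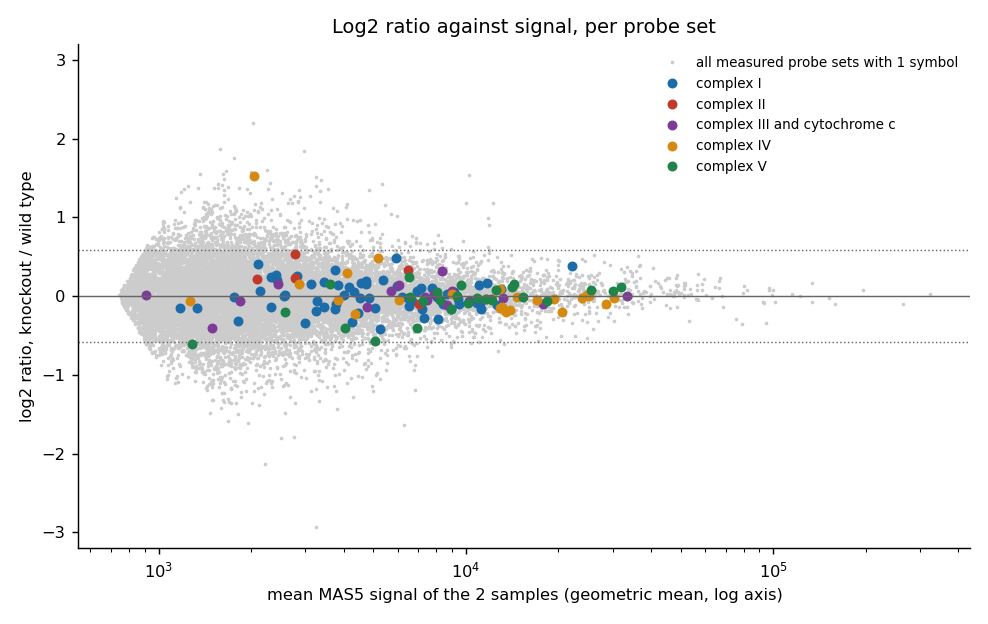
Log2 ratio of knockout over wild type (vertical axis) against the mean MAS5 signal of both samples (horizontal log axis) for each measured probe set. Subunit probe sets are coloured by complex, all other single-symbol probe sets are grey, and dotted lines mark 1.5-fold; 2 of 137 subunit probe sets lie beyond them, 1 each of Cox8c and Atp5o.

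Different probe sets of a gene are the one internal check on these values. Within genes, the SD pooled over probe sets was 0.24 on the log2 scale for 41 subunit genes with more than 1 measured probe set, and 0.33 for 3956 genes of all kinds. In 17 of the 41 all probe sets lay on the same side of 0, against 42.1% of all such genes. Most subunit values are smaller than the disagreement between probe sets of 1 gene.

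**Figure D2:**
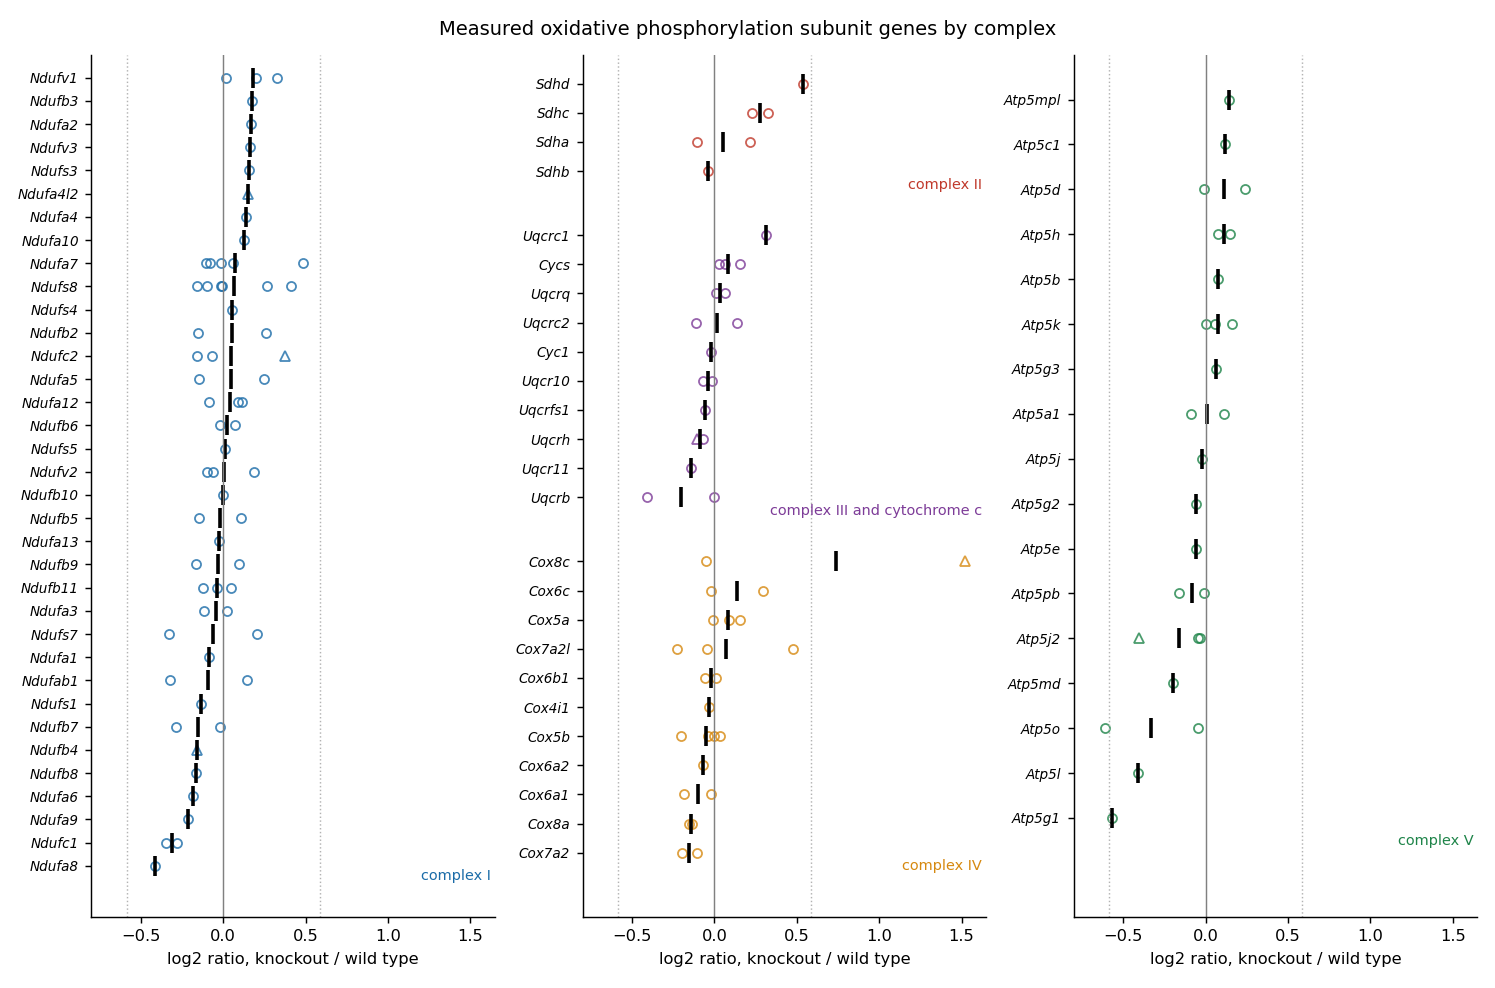
Log2 ratio of knockout over wild type for each of the 77 measured subunit genes, grouped by complex and ordered by the gene's mean. Circles are MOE430A probe sets, triangles MOE430B probe sets, black bars the mean per gene, and dotted lines 1.5-fold; most means lie within 0.2 of 0, and Sdhd, Cox8c and Atp5g1 lie farthest out.

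Complex I, the NADH dehydrogenase, had a median of 0.0074 over 35 measured genes, with 18 higher and 17 lower. That median was below 0 in 6 of 14 other ways of processing, down to -0.022 with the brightest probe set per gene. Its 6 measured core subunits, which hold the flavin and iron-sulfur clusters, had a median of 0.036, and the 29 accessory subunits had one of -0.0028. Ndufv1, the core subunit that binds NADH, was highest at 0.18. Its 3 probe sets read 2576, 5030 and 3364 in wild type and 2598, 5767 and 4209 in knockout, each higher in the knockout. The accessory subunits Ndufb3 and Ndufa2 followed, at 0.18 and 0.17 from 1 probe set each. Ndufb3 read 3250 in wild type and 3664 in knockout, and Ndufa2 read 4306 and 4824.

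At the other end of complex I stood Ndufa8, an accessory subunit of the membrane arm on the side of the intermembrane space. It read 6084 in wild type and 4562 in knockout, a log2 ratio of -0.41 or 1.33-fold lower. Ndufc1, a small subunit of the membrane arm, read 8052 and 3378 in wild type and 6615 and 2651 in knockout. Both of its probe sets were lower, at -0.28 and -0.35, which makes it the lowest of the complex I genes measured more than once. Ndufa9, an accessory subunit near the ubiquinone site, read 4819 and 4142, at -0.22. The core subunits Ndufs3 at 0.16, Ndufs1 at -0.13 and Ndufv2 at 0.0074 lay on both sides of 0. Ndufs8 and Ndufs7, which carry iron-sulfur clusters toward ubiquinone, had probe sets on both sides, from -0.16 to 0.41 over 6 and from -0.33 to 0.21 over 2. These 5 genes were chosen after their values were seen.

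Some complex I members stood near the floor. Ndufb1 read 837 in wild type and 523 in knockout, a bound of at least 1.14-fold lower. One of 3 probe sets of Ndufa3 cleared the floor in wild type but not in knockout, at 1398 against 686, a bound of at least 1.48-fold lower, while the measured ones were at -0.12 and 0.023. One of 4 probe sets of Ndufs4 cleared it in knockout but not in wild type, at 628 and 750, a bound of at least 1.02-fold higher, and its measured one was at 0.055. Ndufa4, grouped here by its symbol, is now counted as a subunit of complex IV, and was at 0.14 with signals of 10527 and 11562. Its paralog Ndufa4l2, known as a hypoxia-induced gene, was at 0.15 with signals of 2985 and 3307. Ndufa1 and Ndufb11 are X-linked, and lay at -0.086 and -0.039. Xist, which silences an X chromosome in female cells, was far lower in the knockout, at 8980 and 1178 on its measured probe set, and its part in these values was not tested.

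Complex II, succinate dehydrogenase, is the smallest complex and the one with no mitochondrially encoded subunit. Its median was 0.17, with 3 of 4 genes higher in the knockout sample. Sdhd and Sdhc form the membrane anchor that binds heme and ubiquinone, and both were higher. Sdhd read 2319 in wild type and 3352 in knockout, a log2 ratio of 0.53 or 1.45-fold. A further Sdhd probe set stayed under the floor in either sample, at 447 and 343, on the opposite side. Without a floor Sdhd was therefore at 0.064. The probe sets of Sdhc read 5805 and 2579 in wild type and 7266 and 3014 in knockout, at 0.33 and 0.23.

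Sdha, the flavoprotein that oxidises succinate, had measured probe sets at 7316 and 1945 in wild type and 6793 and 2250 in knockout, at -0.10 and 0.21. A further Sdha probe set on MOE430B cleared the floor in wild type but not in knockout, at 1567 against 365, a bound of at least 1.66-fold lower. With no floor the log2 ratio of Sdha was -0.59. Sdhb, the iron-sulfur subunit, read 12221 and 11843, at -0.042. Without Sdhd the median of the remaining 3 genes was 0.055. Only 1 of the 4 genes, Sdhc, had more than 1 measured probe set with all of them higher. Without probe sets of the _s_at, _a_at and _x_at classes, which removes Sdhc, the median log2 ratio of complex II subunit genes was -0.042, and with no floor it was 0.0047.

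**Figure D3:**
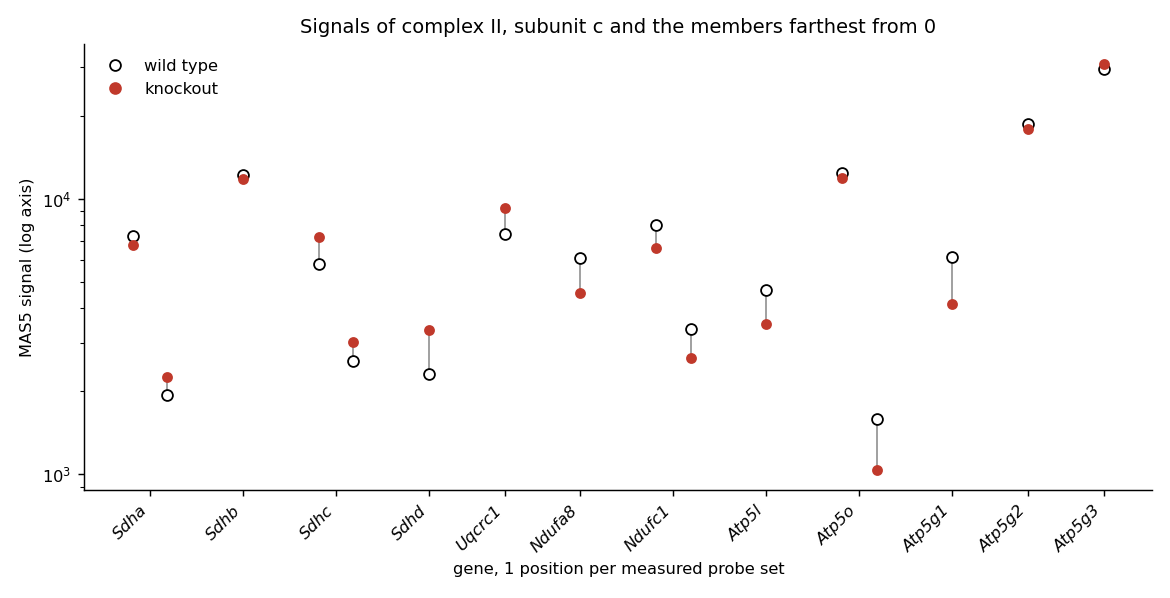
MAS5 signals (vertical log axis) of wild type (open circles) and knockout (red circles) for each measured probe set of complex II, of the genes of subunit c (Atp5g1, Atp5g2, Atp5g3) and of other members far from 0. Sdhc and Sdhd are higher in the knockout on each measured probe set, and Atp5g1 is lower while Atp5g2 and Atp5g3 nearly coincide.

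Complex III, which hands electrons from ubiquinol to cytochrome c, had with cytochrome c a median of -0.032, with 4 of 10 genes higher. Uqcrc1, a large core protein, was highest at 0.32, with signals of 7476 and 9281 on 1 probe set. Its partner Uqcrc2 was at 0.013, the mean of -0.11 and 0.14. The electron-carrying subunits Cyc1, cytochrome c1, and Uqcrfs1, the Rieske protein, were at -0.022 and -0.055. Cyc1 read 13278 in wild type and 13048 in knockout. Uqcrfs1 read 7594 and 7291.

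Groups of subunits by place within complexes III, IV and V were formed with values known. Of the 5 small subunits of complex III, 4 were lower. Uqcrb was at -0.21, but its probe sets disagreed in size, with 33401 and 33312 on one and 1725 and 1296 on the other, at -0.0005 and -0.41. Uqcr11 read 5021 and 4546, at -0.14. Uqcrh was lower on both arrays, at -0.067 on MOE430A with signals of 10452 and 9954 and at -0.11 on MOE430B with 18437 and 17103. Uqcrq was at 0.035, with measured signals of 911 and 5585 in wild type and 913 and 5823 in knockout. It had a further probe set that cleared the floor in wild type but not in knockout, at 998 and 677, a bound of at least 1.36-fold lower.

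Cytochrome c itself, Cycs, was at 0.082. Its 3 measured probe sets, all on MOE430A, read 7822, 2319 and 8799 in wild type and 7957, 2578 and 9165 in knockout, and each was slightly higher in the knockout. The remaining one, on MOE430B, cleared the floor in wild type but not in knockout, at 1435 and 605, a bound of at least 1.52-fold lower. The MOE430A and MOE430B probe sets of Cycs thus lay on opposite sides.

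Complex IV, cytochrome c oxidase, had a median of -0.031 over 11 measured genes of 17, with 4 higher and 7 lower. Among the 17 selected genes, 9 encode subunits common to most tissues. Of these 9, 8 were measured, with a median of -0.042, and 6 of them were lower. Cox7c, the one not measured, was under the floor on both of its probe sets. Cox7a2 read 29556 and 14474 in wild type and 27389 and 12602 in knockout, at -0.11 and -0.20. Cox8a read 13718 and 13594 in wild type and 12470 and 12194 in knockout, at -0.13 and -0.15. Cox6a1 read 30507 and 14789 in wild type and 30013 and 13004 in knockout, at -0.020 and -0.18. Cox6c read 24112 and 3714 in wild type and 23678 and 4540 in knockout, at -0.023 and 0.29. Cox5a, at 0.080, read 12496, 2708 and 14745 in wild type and 13279, 3012 and 14630 in knockout. Cox4i1, which with Cox5a contacts the mitochondrially encoded core, read 19520 and 19059, at -0.031. Cox6b1 read 17374 and 24704 in wild type and 16683 and 24784 in knockout, at -0.055 and 0.0080.

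Several positions in complex IV can be filled by isoforms known from muscle, testis or lung. Of these 7 genes, Cox7a1, Cox7b2 and Cox8b were below the floor in both samples. Cox4i2, known from lung and hypoxia, read 722 and 920, a bound of at least 1.25-fold higher. Cox6b2 read 739 and 158, and its higher signal just reached the floor, so no fold is given. Cox6a2 was at -0.068 with signals of 1299 and 1236. Cox8c, known as a testis isoform, was at 0.74 or 1.67-fold higher, the mean of probe sets that disagreed. The MOE430A probe set read 3895 and 3754, at -0.050, and the MOE430B probe set read 1205 and 3456, at 1.52. On MOE430A alone, or with the brightest probe set, no subunit gene was thus at least 1.5-fold higher. No other subunit gene had measured probe sets that differed by more than 1 on the log2 scale. Cox7a2l, a factor of supercomplex formation rather than a subunit, had 3 probe sets between -0.22 and 0.48.

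Complex V, the ATP synthase, had a median of -0.024 over 17 measured genes, with 8 higher and 9 lower. The 5 genes of the catalytic head and central stalk had a median of 0.076, with 4 higher. Atp5c1, the rotating gamma subunit, read 13516 and 14640, at 0.12. The measured probe sets of Atp5d read 6021 and 15416 in wild type and 7081 and 15267 in knockout, at 0.24 and -0.011. Atp5b, the catalytic beta subunit, read 24962 and 26243, at 0.076. The 8 genes of the membrane part had a median of -0.11, with 3 higher and 5 lower, among them Atp5mpl, a small proteolipid, at 0.14 with signals of 9156 and 10096.

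The lowest of all measured members was in complex V. Atp5g1, which encodes the ring-forming subunit c, read 6163 in wild type and 4153 in knockout, a log2 ratio of -0.57 or 1.48-fold lower, just under the 1.5-fold rule. A further Atp5g1 probe set stayed under the floor in either sample, at 173 and 113, on the same side. Over 10 other ways of processing Atp5g1 ranged from -0.60 with no floor to -0.29 with a pseudocount. Atp5g2 and Atp5g3 encode the same mature subunit c behind different import sequences. Atp5g2 read 18681 and 17917, at -0.057, and Atp5g3 read 29585 and 30776, at 0.060. Of the genes for this subunit, Atp5g1 alone was more than 1.1-fold different on its measured probe set, while an unmeasured Atp5g2 probe set read 76 and 440.

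Atp5l, subunit g of the membrane part, read 4677 and 3507, at -0.41. Atp5o, the peripheral stalk protein that holds the head still, was at -0.33, but from probe sets that differed in size. One read 12383 and 11947, at -0.048, and the other read 1590 and 1037, at -0.61. With the brightest probe set alone Atp5o was thus near 0. Of the other peripheral stalk genes, named after their values were seen, Atp5pb was at -0.086, Atp5j at -0.024 and Atp5h at 0.11.

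Ratios were also set beside the promoter letters given at the start. The 15 measured genes with the NRF1 motif had a median log2 ratio of 0.049, with 9 higher, and the 47 without it had one of -0.029, with 19 higher. With the ETS motif 6 of 17 were higher, with a median of -0.042, and without it 22 of 45, with a median of -0.0028. With the YY1 motif 1 of 6 was higher, with a median of -0.11, and without it 27 of 56, with a median of -0.011. With the CCAAT box 11 of 26 were higher, with a median of -0.034, and without it 17 of 36, with a median of -0.011. Both genes with the exact E2F letters searched were within 1.11-fold of no difference, Cox5a on the higher and Cox8a on the lower side.

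Other genes that serve the same machinery were described in the same way, from lists chosen by function. Assembly factors of the complexes had a median of 0.10 over 41 measured genes, with 26 higher and 15 lower, and 0 past 1.5-fold. This list median of assembly factors was 0.0094 over the 23 genes left with the floor at the 70th percentile, 0.015 with no floor and 0.046 with a pseudocount. Sco1, a copper chaperone of complex IV, was highest at 0.54, with signals of 1133 and 1649, and Coa6, which acts in the same copper delivery, was at 0.53, with 1024 and 1477. Coa7 and Ttc19 were lowest, at -0.31 and -0.29. The factors were also split by complex, with values known. Those of complex IV had 12 of 16 higher, those of complex I 6 of 11 and those of complex II 3 of 4. Those of complex III had 0 of 4 higher and those of complex V 2 of 2. Among all measured genes 49.8% were higher.

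Within the complex IV factors, the 6 genes of copper delivery were all higher in the knockout sample, a group chosen after its values were seen. Their median was 0.48. The list median of copper delivery to complex IV was 0.22 with a pseudocount, 0.29 with no floor and 0.25 over the 2 genes left with the floor at the 70th percentile. Besides Sco1 and Coa6 these were Cox17, which passes copper on, at 1487 and 2102, Sco2 at 1209 and 1649, Cox11 at 2786 and 3574, and Cox19 at 4203 and 4641. Each rests on 1 measured probe set, and 4 of the 6 wild-type signals were under 2000, the band in which ratios scatter most. Without a floor further probe sets enter, and Cox11 and Cox17 then stood at -0.19 and -0.037. Of the complex IV subunits, which were selected by symbol, 4 of 11 were higher.

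Regulators of mitochondrial biogenesis had a median of -0.050, with 6 of 14 higher. The lowest were genes that transcribe the mitochondrial genome. Polrmt, the mitochondrial RNA polymerase, was at -0.52, with its probe sets at -0.60 and -0.43, and Tfb2m, which opens the promoter, at -0.48 with signals of 1699 and 1214. Tfam, which packages and activates mitochondrial DNA and is named after its values were seen, was at -0.32, the mean of -0.43 and -0.21. Mterf2 and Mterf1a were highest, at 0.28 and 0.23. Nrf1 was at -0.0061 over 4 probe sets, Esrra at -0.15, and Gabpa, Ppargc1a and Ppargc1b had no measured probe set; these too were named after their values were seen.

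The citric acid cycle and pyruvate dehydrogenase list had a median of -0.020, with 7 of 17 higher. Suclg2 and Dld were highest at 0.50 and 0.41, and Pdhx and Idh3b lowest at -0.33 and -0.32. Carriers, import and cristae genes had a median of 0.059, with 12 of 22 higher. Tomm40, the import channel of the outer membrane, was at -0.72 with signals of 3206 and 1937, and Micos10 at -0.34. Tomm70a, an import receptor, was at 0.61 from 3 probe sets between 0.21 and 1.32, and Timm50 at 0.37 from 3 between -0.12 and 1.14. The coenzyme Q list had a median of 0.13 over 8 genes, with Coq5 at 0.81 from signals of 790 and 1378, Pdss2 at 0.45, Coq6 at -0.085 and Coq2 at -0.042. The median distance from 0 was 0.094 in the citric acid cycle list and 0.19 in the assembly factors, with the other lists between, against 0.086 in the subunits. Over 12 other ways of processing, the medians of the citric acid cycle, regulator and carrier lists kept their sign in 10, 9 and 11.

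**Figure D4:**
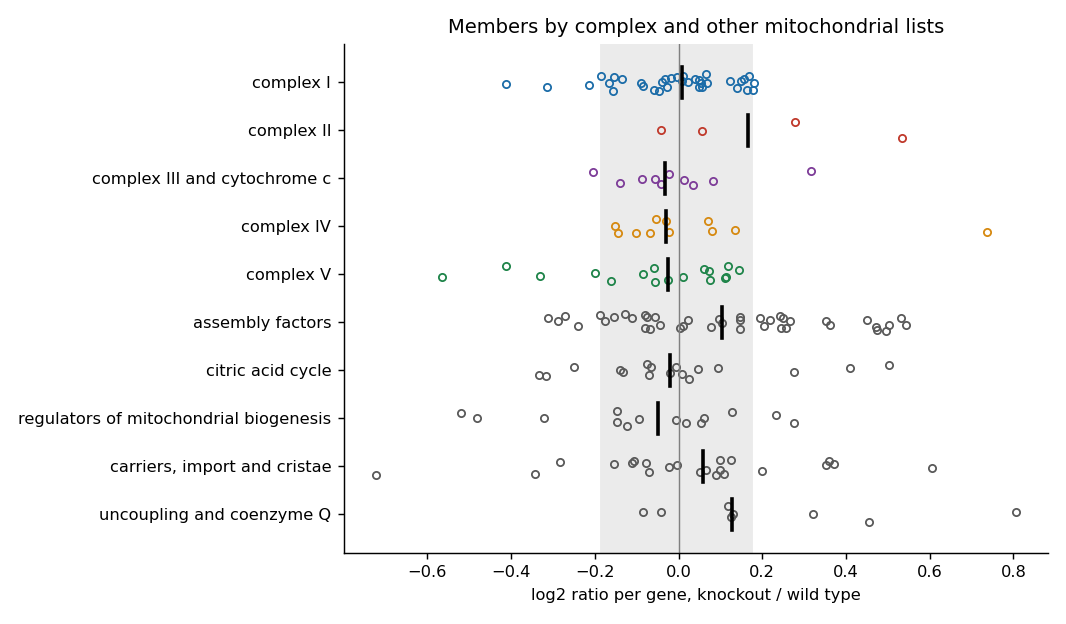
Log2 ratio of knockout over wild type per measured gene (points, with random vertical scatter) for the subunits by complex and for 5 other mitochondrial lists, with black bars at the medians. The grey band runs between the quartiles of all 10171 measured genes, from -0.19 to 0.18; most subunit genes lie inside it.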

How the data were processed

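RNA was purified on RNeasy columns and not amplified before labelling, per the labels' protocols. The deposited intensity values are MAS5 signals on a linear scale, per the submitters' processing notes. The tables used here hold signals without detection calls, and each array's mean is near 1500 once 2% is trimmed at either end. Wild type and knockout of a design were run on 1 day, and the designs on 2 days, per the file headers.

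Centring shifted log2 ratios by -0.0033 on MOE430A and -0.0014 on MOE430B, over 10399 and 9528 measured probe sets, with 64 control probe sets per design left out. A signal above the floor in 1 sample only gave a bound, its value over the floor. The number of arrays limits the precision. Subunits, lists and alternatives were chosen with earlier results of these data known. Signals are given, per complex, for the 3 measured genes farthest from 0 each way, and for genes past 1.5-fold. They are also given for genes measured in 1 sample only, Cycs, Cyc1 and complex II. Isoforms that reached the floor and genes whose probe sets differ by more than 1 have them too. Of the other lists the 2 farthest genes each way are named. Any other gene was named after its values were seen. Alternatives were other floors or none, a pseudocount, no centring, quantile and lowess normalization (span 0.3), other choices of probe sets, each design alone, and leaving out Cox7a2l and Ndufa4l2. The planned comparison of protein sequences was not made. The calculation was tested on simulated data. Software was Python 3.11.15 with pandas 2.3.3, numpy 2.4.6, statsmodels 0.14.6, scipy 1.17.1 and matplotlib 3.10.9.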

Additional observations from a re-analysis of the deposited data

Results flagged for a closer look

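Probe sets annotated with several symbols, of which at least 1 matches the selection, entered no value above. There were 10, of which 9 were measured, and 2 of these were past 1.5-fold. One on MOE430A read 7064 in wild type and 3735 in knockout, a log2 ratio of -0.92. The other, on MOE430B, read 1039 and 3636, a log2 ratio of 1.81. Both were singled out because they are past 1.5-fold and entered no gene value. The other 7 measured ones were within 1.2-fold. The MOE430A probe set is annotated with Ndufs6b and Ndufs6, which both match the selection for complex I. The MOE430B probe set is annotated with Yjefn3 and Ndufa13, of which only Ndufa13 matches. Ndufa13 is among the genes compared above, through a single-symbol probe set on MOE430A. That one read 6533 in wild type and 6389 in knockout, a log2 ratio of -0.029. Which of its symbols each probe set reads was not tested.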

How the results depend on the processing

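The median over all subunit genes stayed between -0.037 and -0.00096 in every alternative other than MOE430B alone, where it was 0.021 over 6 genes, with 3 higher and 3 lower. Medians of complex III with cytochrome c and of complex V kept their sign in 13 of 13 alternatives, from -0.11 to -0.0094 and from -0.40 to -0.0022. The -0.40 of complex V is 1 gene on MOE430B alone, as are the -0.11 of complex III and the 1.52 of complex IV. The complex I median changed sign in 6 of 14 alternatives. It was -0.013 with the floor at the 30th percentile, -0.010 with no floor, -0.0024 with a pseudocount, -0.022 with the brightest probe set, -0.019 with the median over the probe sets of each gene and -0.0028 on MOE430A alone. The complex II median was -0.042 without probe sets of the _s_at, _a_at and _x_at classes, which leaves 3 genes, and MOE430B alone gave it no value. Without those classes 22 of 54 subunit genes were higher. Cox8c, the 1 gene past 1.5-fold, was at -0.050 there, on MOE430A alone and with the brightest probe set, and at -0.048 when the floor was raised to the 70th percentile. The number at least 1.5-fold higher was then 0, as with a pseudocount. With no floor 5 were higher and 7 lower by 1.5-fold, and 1 was lower with the lower floor and with a pseudocount. The extra genes come from dim probe sets that these settings admit. For other changes the cause was not tested. The median per gene was chosen after seeing the data, and turned no other median. So were counting Ndufa4 in complex IV, leaving out Sdhd from complex II, and 1 median over all subunit probe sets, which turned no sign of the medians they bear on. Sdhd ranged from 0.064 to 0.55, Sdha from -0.59 to 0.057, Sdhc from 0.23 to 0.33 and Polrmt from -0.60 to -0.39. No paired analysis was possible because there is 1 sample per genotype.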

Other observations

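Genes that build iron-sulfur clusters, needed by complexes I, II and III, were looked at after their values were seen. Iscu, the scaffold, was at 0.22 with signals of 4265 and 4954. Lyrm4, a partner of the cysteine desulfurase, was at 0.24 with signals of 2405 and 2840. Nfs1, the desulfurase itself, was at 0.27, but from probe sets at -0.11 and 0.65. Hccs, which attaches heme to cytochrome c, was lower on both of its probe sets, at -0.38 and -0.10. The subunits of isocitrate dehydrogenase in the citric acid cycle were at -0.13 for Idh3a, -0.32 for Idh3b and 0.0077 for Idh3g, and the probe sets of Idh3b disagreed in size, at -0.62 and -0.016.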
